A study of Carex littledalei with 18 samples.

Results

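The second day of freezing cold was set against the first day in leaves of Kobresia littledalei (Carex littledalei), a sedge of alpine meadow. The comparison uses 9 of the 18 libraries of the study, chosen by their labelled time alone: the 3 libraries of 48 h at -5 °C, and the 3 libraries of 12 h together with the 3 of 24 h at -5 °C, taken as 1 group of 6. Wild plants from Tibet had been potted and kept at 25 °C in a greenhouse for 7 days before the move into the cold room. A pot served for a single time, so the 48 h libraries come from 1 pot and the group of 6 from 2 pots. All groups were in the cold, the samples include no plants left at 25 °C for as long, and no plant age, genotype or strain is given. Time in the cold and pot therefore cannot be told apart. Libraries were made from leaf mRNA, and in such bulk samples fewer cells of a type and less RNA per cell cannot be told apart.

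When a plant is chilled, membranes stiffen and calcium enters its cells, and transcription factors of the ICE and CBF/DREB1 families switch on cold-regulated (COR) genes. The products of these genes include dehydrins and other LEA proteins, which protect proteins and membranes when water freezes outside the cell, enzymes that make protective sugars, and desaturases that keep membranes fluid. The early regulators rise and fall quickly, whereas many of their targets stay up for longer in the cold. The files give the rows of this study as identifiers of a Trinity transcript assembly and pair none of them with a gene name. The lists of cold, photosynthesis, clock and other genes drawn up for the comparison could therefore not be applied, and the label leaf could not be checked against leaf marker genes. What Trinity calls a gene is a group of transcripts it assembled together. Genes that it could not fully disentangle share a component, so copies, alleles and fragments of 1 plant gene can stand as several rows of the same component.

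The 9 libraries held between 25050559 and 32345505 estimated counts, rounded to whole numbers. No pair among the 9 had identical columns. Of all 153 pairs in the series, 1 was identical, 0 h replicate 1 with 4 h replicate 1, and neither of these was used, which leaves 7 libraries of 0, 0.5 and 4 h for the earlier levels given below. The library of 24 h replicate 2 stood apart: 93.0% of its counts fell on the 53317 genes that entered the test, against 98.6% to 99.6% in the other 8 libraries, and 43264 genes reached a level of 1 CPM (counts scaled to library size) in it, against 31051 to 34021. Results that rest on it are given with and without it.

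At 48 h, 410 assembled genes were higher than at 12 and 24 h and 219 were lower, of 53317 tested (edgeR's quasi-likelihood test, Benjamini-Hochberg adjusted p under 0.05). These are 0.769% and 0.411% of the genes tested. The genes that rose were for the most part barely read on the first day: their means had a median of 2.91 CPM at 48 h and 0.0793 CPM at 12 and 24 h. The genes that fell were lower on the second day by differing amounts, and 66 to 76 of the 219 still reached 1 CPM in each 48 h library, the median of their means being 0.237 CPM at 48 h and 4.84 CPM at 12 and 24 h. Over all genes tested the same medians were 1.78 and 1.85 CPM. Without 24 h replicate 2, 194 genes were higher (0.382% of those tested) and 75 lower (0.148%).

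**Figure D1:**
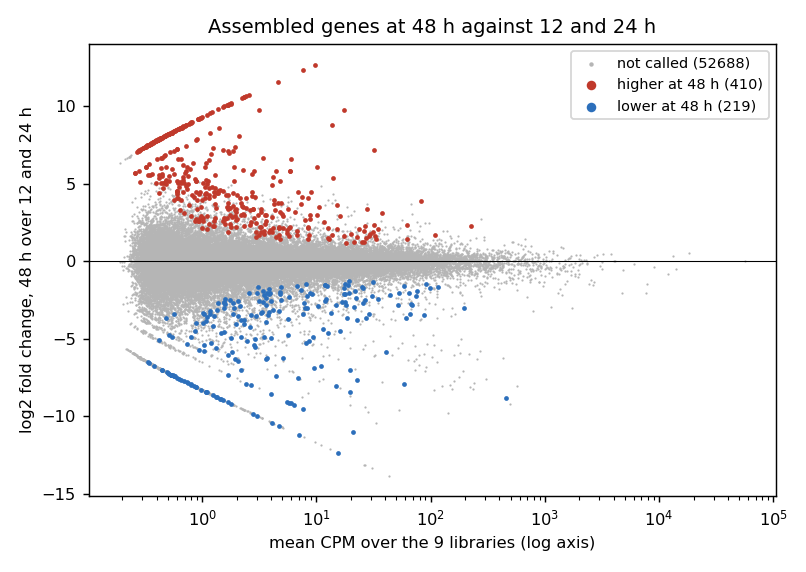
Each point is 1 of the 53317 assembled genes tested, with its mean CPM over the 9 libraries on the x axis (log scale) and its log2 fold change of 48 h over 12 and 24 h on the y axis. The 410 genes higher at 48 h (red) and the 219 lower (blue) spread over mean levels from under 1 CPM to over 100 CPM.

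The called changes were large, but at this spread between libraries a call needs a large change, so nothing is read from their size. The median log2 fold change was 5.03 in the genes that rose, with a range of 1.17 to 12.69, and -3.82 in the genes that fell, with a range of -12.35 to -1.27, against -0.03 over all genes tested. With genes that had 0 reads in 1 group set to a bound of 3 counts over that group, the medians were 5.02 and -3.79. A log2 fold change of 6 or more was reached by 158 of the 410 and 71 of the 219, and 37 and 24 lay between 1 and 2. In 116 of the 410 and 44 of the 219, all libraries of 1 group had 0 reads. Their log2 fold changes depend on how 0 is handled, so the ends of the ranges and the numbers at 6 or more are uncertain. Genes with a mean under 1 CPM supplied 187 of the 410 that rose and 37 of the 219 that fell, and genes with a mean between 10 and 100 CPM supplied 38 and 58. Of the 9929 tested genes in that higher class, 0.383% rose and 0.584% fell. Of the 18468 tested genes under 1 CPM, 1.01% rose and 0.200% fell.

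Of the 410 genes that rose, 409 had all 3 libraries of 48 h above all 6 of 12 and 24 h, and of the 219 that fell, 213 had all 3 below all 6. Over all tested genes such separation was found in 4.38% upward and 3.48% downward. In the other 7 called genes the groups overlapped. One of them, picked here with its values known, took the most counts of all called genes. It stood at 1.63, 0.886 and 2.09 CPM at 48 h, against 620, 748 and 261 CPM at 12 h and 2106, 386 and 1.56 CPM at 24 h. The library of 24 h replicate 3 thus lay among the 48 h libraries for this gene, while the other 5 first-day libraries were at 261 CPM or more.

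The genes printed by identifier are the 2 in each direction with the most counts where they are higher, among called genes whose groups did not overlap and which were also called without 24 h replicate 2 (192 higher and 75 lower). TRINITY_DN207774_c2_g2 stood at 423, 80.6 and 152 CPM in the 48 h libraries, and at 2.89 to 24.5 CPM in the first-day libraries with a median of 13.8. All 3 libraries of 48 h were above all 6 of the first day, but they differed among themselves by more than those of any other printed gene. Its mean was 219 ± 180.5 CPM at 48 h (SD, n = 3) and 14.9 ± 8.5 CPM at 12 and 24 h (SD, n = 6). The log2 fold change was 3.87 with an SE of 0.63 (adjusted p = 0.0172 in edgeR). Without 48 h replicate 1 the log2 fold change was 2.98 and the call was lost (edgeR adjusted p = 0.0884).

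TRINITY_DN195253_c2_g6 had 133, 127 and 134 CPM at 48 h, and 17.0 to 37.2 CPM on the first day with a median of 26.5. The 48 h libraries were nearly alike and lay above every first-day library. Its mean was 132 ± 3.6 CPM at 48 h (SD, n = 3) and 26.4 ± 6.7 CPM at 12 and 24 h (SD, n = 6), a log2 fold change of 2.32 with an SE of 0.28 (adjusted p = 0.00421 in edgeR). Its component holds 7 genes, and the summed counts of that component had a log2 fold change of 0.79 and were not called (edgeR adjusted p = 0.469).

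**Figure D2:**
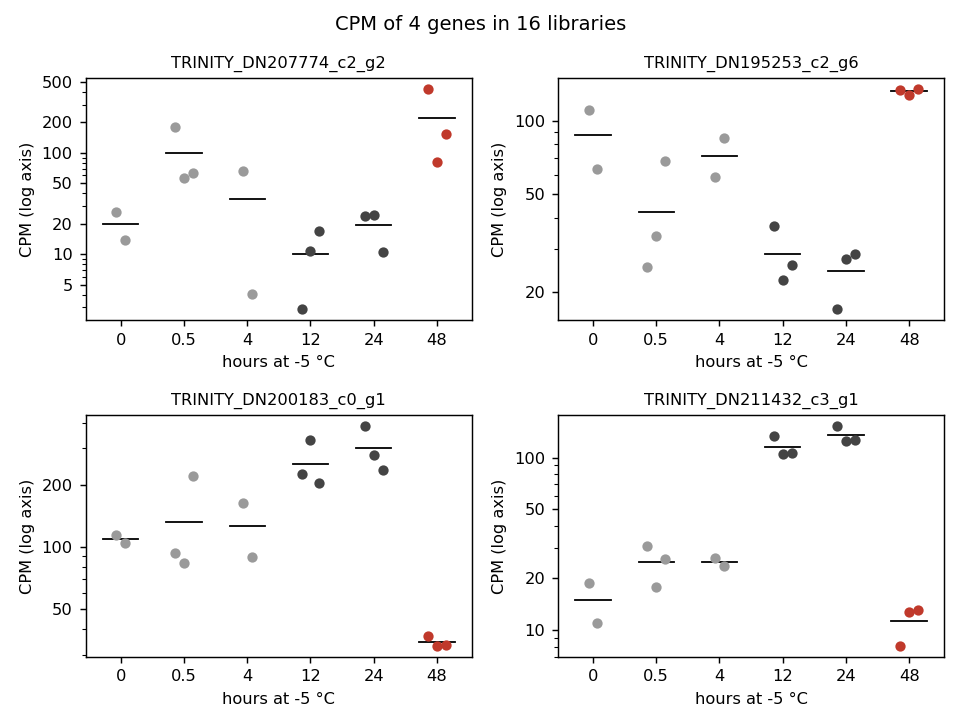
CPM (log axis) of the 4 genes printed by identifier in 16 libraries, by hours at -5 °C; points are libraries, lines are means, and 48 h is in red. The upper pair lies at 80.6 to 423 and 127 to 134 CPM at 48 h, above all first-day libraries (dark grey), and the lower pair at 33.1 to 36.8 and 8.08 to 13.0 CPM, below them.

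The next genes of the same order are given without identifier. In the third of those that rose, CPM was 127, 55.7 and 98.6 at 48 h, against 0.299 to 1.23 with a median of 0.590 on the first day. Its log2 fold change was 7.19 with an SE of 0.45 (adjusted p = 0.000169 in edgeR), and its component rose with it (log2 fold change 6.03). In the gene placed 5 in that order, CPM was 90.9, 29.5 and 34.3 at 48 h, and 0 to 0.151 on the first day with a median of 0.0450. That gene was alone in its component, and its log2 fold change was 9.75 with an SE of 0.72 (adjusted p = 0.000392 in edgeR). Over the first 12 genes by this order, log2 fold changes ran from 2.32 to 12.69.

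Among the genes that fell, TRINITY_DN200183_c0_g1 had 36.8, 33.1 and 33.4 CPM at 48 h, and 204 to 385 CPM on the first day with a median of 257. The 3 libraries of 48 h were close together and far below all 6 others. Its mean was 34.4 ± 2.0 CPM at 48 h (SD, n = 3) and 277 ± 70.0 CPM at 12 and 24 h (SD, n = 6), a log2 fold change of -3.01 with an SE of 0.36 (adjusted p = 0.00417 in edgeR). The summed counts of its component of 3 genes had a log2 fold change of -2.11 and were not called (edgeR adjusted p = 0.0644).

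TRINITY_DN211432_c3_g1 had 8.08, 12.7 and 13.0 CPM at 48 h, and 104 to 152 CPM on the first day with a median of 125. Its groups lay farther apart than the spread within either. Its mean was 11.3 ± 2.8 CPM at 48 h (SD, n = 3) and 125 ± 17.9 CPM at 12 and 24 h (SD, n = 6), a log2 fold change of -3.46 with an SE of 0.34 (adjusted p = 0.00158 in edgeR). A second gene of the same component, placed 5 in the order, had 5.96, 7.21 and 7.67 CPM at 48 h and 69.6 to 121 CPM on the first day. Its log2 fold change was -3.66 with an SE of 0.34 (adjusted p = 0.00137 in edgeR). The authors' counting may have split reads between these rows, so the pair is uncertain as 2 separate transcripts. The summed counts of their component of 6 genes had a smaller log2 fold change of -1.54 (edgeR adjusted p = 0.0479). Over the first 12 genes that fell, log2 fold changes ran from -7.93 to -2.04.

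Some genes were read in 1 group and at 0 in the other. With at least 10 reads in all 3 libraries of 48 h and 0 reads in all 6 of the first day, 140 genes were on at 48 h alone within this comparison. Of these, 130 entered the test (0.244% of the genes tested) and 116 were called higher. The reverse, 0 reads in all 3 libraries of 48 h and at least 10 in all 6 of the first day, held for 19 genes (0.0356%), all of them called lower. The reverse condition asks for reads in 6 libraries and the first in 3, so the counts are not on the same footing. Against 3 counts over the group at 0, the 140 genes were at least 19.2-fold higher at 48 h, with a median bound of 59.5-fold. The 19 genes were at least 17.6-fold lower, with a median bound of 55.0-fold. These bounds cover counting error only.

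The gene with the highest such bound, placed 10 in the order of genes that rose, had 53.7, 15.0 and 18.6 CPM at 48 h and 0 reads in all first-day libraries, and was at least 1581-fold higher. The same gene had 10.5 CPM in 0.5 h replicate 1 and 9.45 CPM in 4 h replicate 2, and 0 reads in the other 5 libraries of 0, 0.5 and 4 h. The summed counts of its component of 3 genes had a log2 fold change of 0.29 (edgeR adjusted p = 0.848). The 140 became 272 when 48 h replicate 1 was left out and 278 when 48 h replicate 3 was. The 19 became 29 when 48 h replicate 2 was left out, 52 when 24 h replicate 3 was and 65 when 12 h replicate 1 was. Leaving out 24 h replicate 2 moved neither by over 1.5 times.

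The libraries of 0, 0.5 and 4 h took no part in choosing these genes, and their levels are given as a description. The genes were chosen for a distance between 48 h and the first day. Levels in libraries outside that choice therefore tend to fall between the 2 by the choice alone. In the genes that rose, the median over genes was 0.0981 CPM at 0 h, 0.662 CPM after 0.5 h, 0.299 CPM after 4 h, 0.0841 CPM after 12 h, 0.0724 CPM after 24 h and 2.91 CPM after 48 h. In the genes that fell it was 2.63 CPM at 0 h, 2.58 CPM after 0.5 h, 2.35 CPM after 4 h, 4.72 CPM after 12 h, 4.88 CPM after 24 h and 0.237 CPM after 48 h. Before 12 h the median of the genes that fell lay between that of 48 h and those of 12 and 24 h, and nothing is read from this. In 24 of the 219 the earlier level was farther from 48 h than the first-day level. All 3 libraries of 48 h were above every other library of the 16 in 223 of the 410 genes that rose and below them in 95 of the 219 that fell, against 1.6% and 0.786% of all genes tested. The call already fixed most of the separation from the first day, so nothing is read from these shares. Among all tested genes separated from the first-day libraries, called or not, 855 of 2337 above and 419 of 1858 below were beyond every other library. On a log2(CPM + 0.1) scale, the mean of the 7 earlier libraries lay nearer to the first-day mean than to the 48 h mean in 381 of the 410 and 164 of the 219 genes. Over all tested genes this held for 56.7%. The called genes were chosen for a distance between these 2 means, so nothing is read from the difference in shares.

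**Figure D3:**
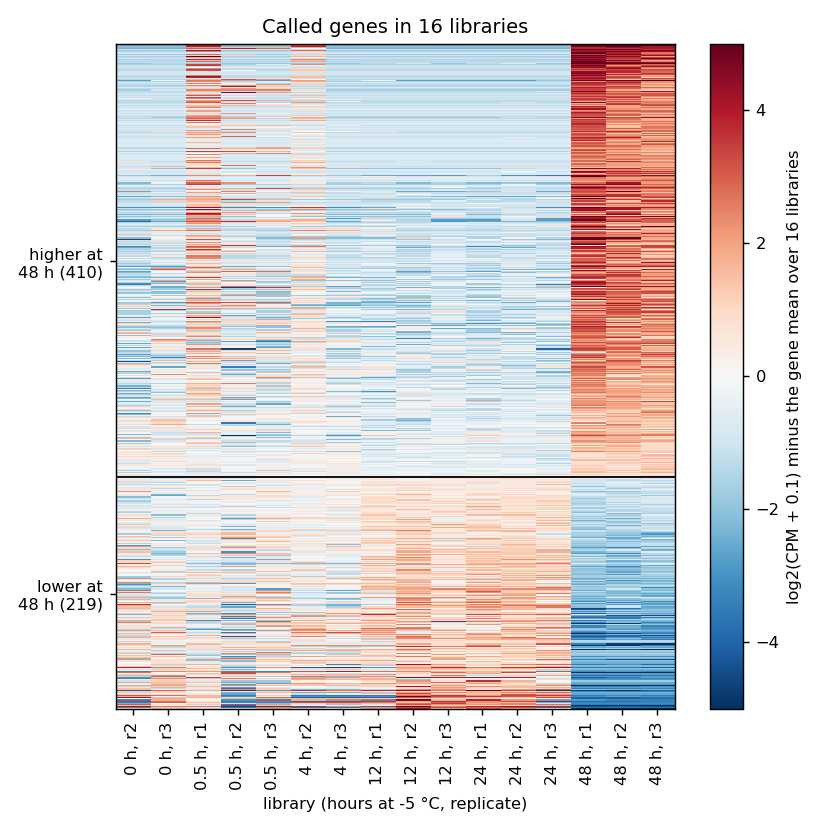
Rows are the 629 called genes, ordered within each direction by log2 fold change; columns are 16 libraries by hours at -5 °C; colour is log2(CPM + 0.1) minus the mean of the gene over the 16 libraries, cut at -5 and 5. The 48 h columns are red in the upper block of 410 genes and blue in the lower block of 219, and in the upper block 0.5 h replicate 1 and 4 h replicate 2 are redder than the columns around them.

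The printed genes differed in their earlier levels. TRINITY_DN207774_c2_g2 had 26.2 and 13.9 CPM at 0 h, 179, 56.3 and 63.1 at 0.5 h, and 66.7 and 4.07 at 4 h, so 0.5 h replicate 1 overlapped the 48 h libraries. TRINITY_DN195253_c2_g6 had 111 and 63.2 CPM at 0 h, 25.3, 33.8 and 68.3 at 0.5 h, and 59.1 and 84.9 at 4 h, below all 48 h libraries. TRINITY_DN200183_c0_g1 had 83.4 to 221 CPM in the 7 earlier libraries, above all 48 h libraries. In TRINITY_DN211432_c3_g1 those libraries ran from 11.0 to 30.7 CPM, and the lowest of them, 0 h replicate 3, lay within the 48 h range.

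Single earlier libraries held many of the transcripts that rose. Of the 410, 363, 321 and 289 reached 1 CPM in 48 h replicates 1, 2 and 3, and between 80 and 89 did so in the 6 first-day libraries. The choice of genes made these first-day numbers low, so nothing is read from an earlier library exceeding them. In 0.5 h replicate 1 the number was 210, in 4 h replicate 2 it was 142 and in 0.5 h replicate 2 it was 133, and in the other 4 earlier libraries it lay between 89 and 111. Over all tested genes, 0.5 h replicate 1 had 34058 genes at 1 CPM and the first-day libraries had 30888 to 33530. The 410 genes held 0.364% to 0.508% of counts at 48 h, 0.0556% to 0.0945% on the first day and 0.207% in 0.5 h replicate 1. For the 219 genes that fell, 66 to 76 reached 1 CPM at 48 h, against 166 to 193 on the first day. The 7 earlier libraries held 134 to 155 of them.

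**Figure D4:**
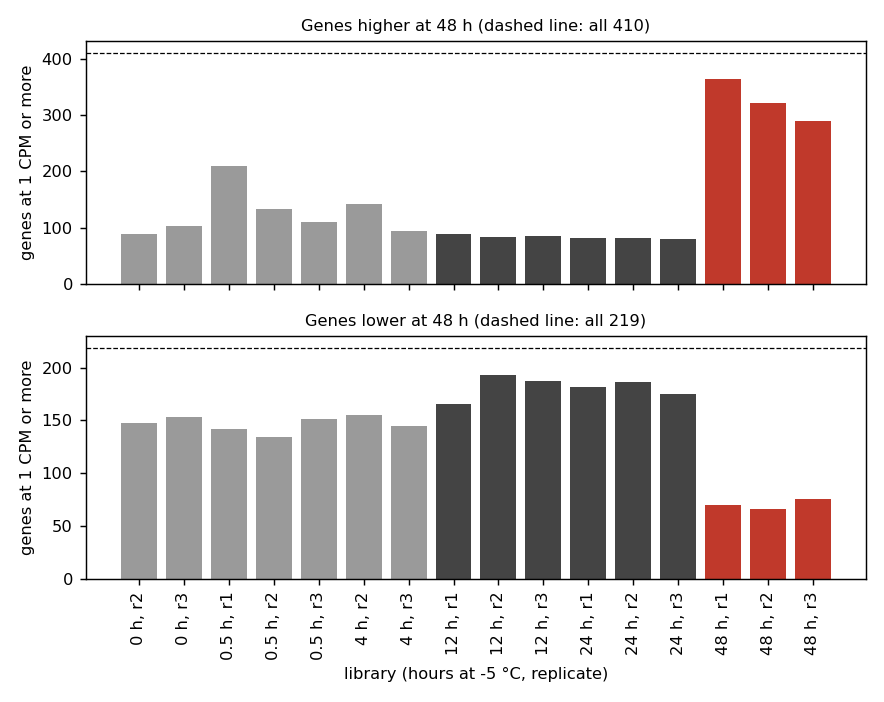
Number of genes at 1 CPM or more in each of 16 libraries, for the 410 genes higher at 48 h (upper panel) and the 219 lower (lower panel); bars start at 0 and the dashed line is the full number. The upper panel shows 289 to 363 genes at 48 h, 80 to 89 on the first day and a peak of 210 among the earlier libraries in 0.5 h replicate 1.

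Among the 140 genes on at 48 h and off on the first day, 103 had reads in 0.5 h replicate 1 and 70 in 4 h replicate 2, 46 and 35 in 0.5 h replicates 2 and 3, and 1 to 5 in the libraries of 0 h and in 4 h replicate 3. In 35 genes all 7 earlier libraries were at 0. Depth was 20511127 counts in 0.5 h replicate 1, 29124073 in 4 h replicate 2, and 29079980 and 26629410 in 0.5 h replicates 2 and 3. The libraries of 0 h and 4 h replicate 3, with 1 to 5 of these genes, had 18895404 to 20594897 counts. Apart from 0.5 h replicate 1, the earlier libraries with few of these genes were thus mostly the shallower ones. The part of depth was not tested. The library of 0.5 h replicate 1 held nearly all of the genes that the other 3 libraries held: 45 of the 46 in 0.5 h replicate 2, 34 of the 35 in 0.5 h replicate 3 and 69 of the 70 in 4 h replicate 2. Across the 140 genes, Spearman's rho of 0.5 h replicate 1 was 0.84 with 4 h replicate 2, 0.25 with 0.5 h replicate 2 and 0.23 with 0.5 h replicate 3. Between 0.5 h replicates 2 and 3 it was 0.85, with 34 genes read in both. With 4 h replicate 2, 0.5 h replicate 2 gave 0.02 with 23 genes in both, and 0.5 h replicate 3 gave 0.03 with 18. In all 4 libraries 17 of the 140 genes were read. These are descriptions across genes, which are not independent, in counts that are often 0. Summed over the 140 genes, levels were 379.6, 273 and 219 CPM in the 48 h libraries and 129.7, 50.2, 21.3 and 48.9 CPM in 0.5 h replicates 1, 2 and 3 and 4 h replicate 2.

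The 19 genes lost at 48 h were read in all libraries of 0 and 4 h but for 1 gene in 0 h replicate 2, and in 12 of 19 cases in 0.5 h replicate 2. Their median over genes was 1.56 CPM at 0 h, 0.624 CPM after 0.5 h, 0.963 CPM after 4 h, 1.68 CPM after 12 h, 1.65 CPM after 24 h and 0 CPM after 48 h.

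Within the 48 h group, the genes that rose were not spread evenly over replicates. The highest of the 3 values was in 48 h replicate 1 in 227 of the 410 genes (55.4%), against 30.1% of all tested genes. A coefficient of variation is not defined for a gene with 0 reads throughout a group. This leaves out 116 of the 410 over the 12 and 24 h libraries, and 44 of the genes that fell over the 48 h libraries. Of all tested genes it leaves out 573 at 48 h and 130 at 12 and 24 h. In the genes that rose, the median coefficient of variation was 44.8% at 48 h and 68.5% at 12 and 24 h. For all tested genes the medians were 42.3% and 50.4%. For the genes that fell they were 40.9% at 48 h and 48.0% at 12 and 24 h.

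The step between the pooled times, 24 h against 12 h, was tested on its own. Of the 53317 genes, edgeR called 0 between 24 h and 12 h, and 1144 had an unadjusted p under 0.05, while DESeq2 called 29 and limma called 0 on the authors' scaled values. Without 12 h replicate 3, edgeR called 4, and with no filter on low counts it called 5999 of 190591 genes. Over all genes tested, the median log2 fold change of 24 h against 12 h was -0.01 (quartiles -0.35 and 0.34). In a fit of the 9 libraries with a mean per time, 28 genes were called higher and 27 lower at 48 h against 12 h alone, and 31 and 31 against 24 h alone.

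The 629 called genes lay in 559 components, 60 of which held 2 or more called genes and 3 of which held a gene called in each direction. The change was smaller over whole components than in the called genes. Summed over components, 157 of 24893 components were higher (0.631%) and 73 lower (0.293%) by the same test. For the 366 of the 410 genes in components of at least 2 genes, the median log2 fold change was 4.87 for the gene and 1.62 for the summed component. For 204 of the 219 genes that fell, it was -3.80 for the gene and -1.92 for the component. The component sum was itself called in 168 of the 410 and 83 of the 219 genes, and differed by under 2-fold in 115 and 51. The 410 and 219 include 44 and 15 genes alone in their component, where the sum is the gene itself. Over all genes tested, the sum was called higher for 264 and lower for 174, and differed by under 2-fold for 83.3%. Where the remaining rows of the component together reached 1 CPM, they differed by under 2-fold for 137 of 262 genes that rose and 67 of 155 that fell, against 87.1% of all tested genes with such rows. For the genes that rose they were over 2-fold higher in 110 of the 262 and over 2-fold lower in 15, with a median log2 ratio of 0.66. For the genes that fell they were over 2-fold lower in 83 of the 155 and over 2-fold higher in 5, with a median log2 ratio of -1.23. Of all 39818 tested genes with such rows, 1805 had them over 2-fold higher and 3343 over 2-fold lower.

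The number of calls depended on single libraries. Without 24 h replicate 2, 192 of the 410 genes and 75 of the 219 were still called in their direction. All 410 and 217 of the 219 could still be tested. None of these changed sign, their highest adjusted p in edgeR was 0.118, and the median log2 fold changes of the sets were 4.97 and -3.81. Without 48 h replicate 1, 2 or 3, 123, 106 and 171 genes were higher and 31, 36 and 54 lower. Without 12 h replicate 1, 625 were higher and 465 lower. Leaving out any of the other 4 first-day libraries gave 277 to 409 higher and 146 to 296 lower.

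**Figure D5:**
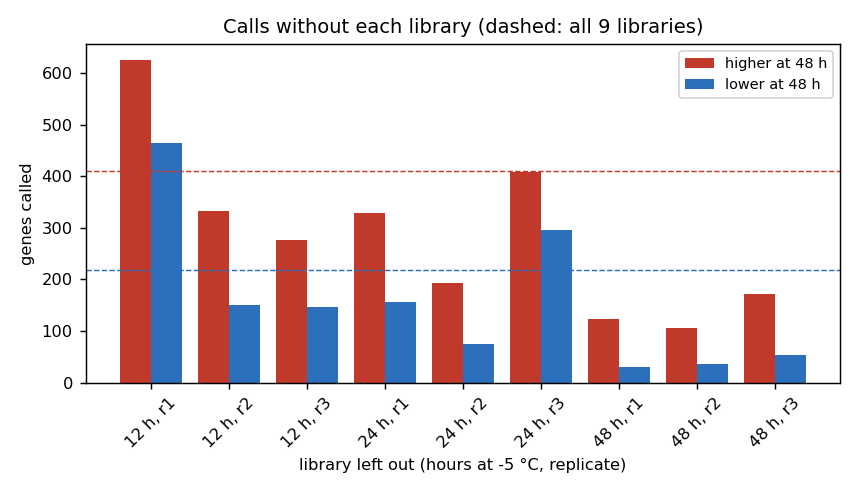
Number of genes called higher (red) and lower (blue) at 48 h after leaving out each of the 9 libraries, with bars starting at 0 and dashed lines at the 410 and 219 of all 9 libraries. Calls were fewest without a 48 h library, at 106 to 171 higher and 31 to 54 lower, and most without 12 h replicate 1.

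Over all 9 libraries, whole profiles differed more between the second and first day than for any other choice of 3 libraries. This depended on single libraries, and no difference in the number of genes read was detected. The division into 48 h and first-day libraries held 22.5% of the variation in log2(CPM + 1) over the tested genes, where 12.5% is the chance share. No other choice of 3 libraries among the 84 possible gave as much, so the exact permutation p was 0.0119, the smallest the design allows (one-sided by construction). Without 48 h replicate 1 or 3 the shares were 20.5% and 22.9% (exact permutation p = 0.0714 for each, where 28 choices exist). Without 24 h replicate 2 the share was 22.7% (exact permutation p = 0.0357). The exact permutation p was 0.0179 without any other single first-day library. With 24 h replicate 2 left out, the 48 h choice was thus not the only one to give as much. The number of genes at 1 CPM averaged 32650 ± 1320 at 48 h (SD, n = 3) and 34481 ± 4390 at 12 and 24 h (SD, n = 6), an exact two-sided permutation p of 0.667. That difference of -1831 genes was -74.2 without 24 h replicate 2 (exact permutation p = 0.946). The share of counts on the 100 most abundant genes was 29.3% ± 3.8 at 48 h (SD, n = 3) and 31.1% ± 6.0 at 12 and 24 h (SD, n = 6), an exact two-sided permutation p of 0.679. Both of these tests could not have gone below 0.0238. Ranked levels of the tested genes had Spearman's rho of 0.877 to 0.895 within 48 h (3 pairs of libraries). It was 0.772 to 0.856 between 48 h and first-day libraries (18 pairs) and 0.798 to 0.908 within the first day (15 pairs). The 3 pairs within 12 h, at 0.809 to 0.826, lay inside the range of the 18 pairs between 48 h and the first day. Of the 100 most abundant genes per length, a pair of libraries shared 52 to 64 within 48 h, 46 to 69 between 48 h and first-day libraries and 46 to 76 within the first day.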

How the data were processed

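Leaf RNA was sequenced as MGIEasy mRNA libraries by BGI-seq from 2 µg of total RNA, per the labels' protocols. Per the submitters' processing notes, Trimmomatic 0.36 and FastQC were used; which tool counted reads is not given in the sources used here. Estimated counts (expected counts, not scaled between libraries) were deposited by the authors, beside a signal table scaled for gene length and by TMM per its name, without stating TPM or FPKM. Columns were matched by sample title, with 0 left unmatched.

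Estimated counts were rounded. The test used edgeR 4.0.16 (R 4.3.3): filterByExpr for the 2 groups of the 9 libraries, scaling by TMM, then a quasi-likelihood F test with a mean for 48 h and 1 for 12 and 24 h pooled, over 53317 of 214531 genes, with 7 residual degrees of freedom. The common biological coefficient of variation was 62.7%. SEs are the absolute log2 fold change divided by the square root of F. CPM use the TMM factors of the 9 libraries; earlier libraries were scaled to the same reference library. The procedure was run on simulated counts, with changes placed only in genes at or above the median level. That run does not cover the genes of low level that supply many of the calls. Alternatives used DESeq2 1.42.0 and limma 3.58.1, among others. The comparison and its lists were chosen with earlier results of these data known. Genes named were chosen by the order stated with them. Whether the replicates are separate plants is not in the labels, so p-values measure only the spread between these libraries, which may be technical. Identifiers could not be linked to sequences, so none is shown.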

Additional observations from a re-analysis of the deposited data

Results flagged for a closer look

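In the group of 6 first-day libraries, 14 measures were screened for a library far from the others, and 2 stood out, both in 24 h replicate 2. That library was known beforehand to hold many genes read in no other. The 2 flags, which are not independent, restate this, and a chance rate of about 1 in 20 does not apply to them. Of the tested genes, 33530 reached 1 CPM in it, against 30888 to 33204 in the other first-day libraries. In 24 h replicate 2, 93.0% of counts fell on tested genes, and 43264 genes reached 1 CPM.

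Outside the comparison, 6 of the 7 libraries of 0, 0.5 and 4 h held more of the 410 genes higher at 48 h at 1 CPM than any first-day library, whose highest number was 89. The numbers were 103 in 0 h replicate 3, 210, 133 and 111 in 0.5 h replicates 1, 2 and 3, and 142 and 95 in 4 h replicates 2 and 3. The 410 genes were called for low levels in the first-day libraries, so higher numbers in other libraries are in part fixed by that choice. Nothing is read from the excess over 89, and the differences between these libraries were not tested.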

How the results depend on the processing

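Main counts were 410 genes higher and 219 lower at 48 h. DESeq2 called 1046 and 2029, the only setting with more lower than higher. Genes higher were 772 with limma on log2(scaled value + 1) and 246 with a filter of 1 CPM in 3 libraries; genes lower were 343 with limma on log2(scaled value + 0.1) and 129 with separate means for 12 and 24 h. Component sums gave 157 and 73, an adjusted p under 0.01 gave 71 and 25, 48 h against 12 h alone 28 and 27, and against 24 h alone 31 and 31. Leaving out 1 library gave 106 to 625 higher and 31 to 465 lower. RLE factors, library size alone, no filter, 16 libraries with a mean per time, and robust shrinkage kept both counts within 1.5 times. The cause of these shifts was not tested. With the replicate number as a block, 144 were higher and 57 lower. Correlations of deviations ran from -0.35 to 0.14 between same-numbered libraries and from -0.29 to 0.35 between differently numbered ones. No pairing by number was seen in them. For 24 h against 12 h, DESeq2 called 29, edgeR without a filter 5999, and leaving out 1 library gave 0 to 4.

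With at least 5 reads, 264 genes were on at 48 h alone and 42 off; leaving out 1 library gave 142 to 278 and 19 to 65. The share of variation was 20.5% to 26.7% without 1 library. The difference in the share of the 100 most abundant genes ran from -3.27 to 0.42 percentage points, the positive value arising without 48 h replicate 2. The difference in genes detected was negative, with p above 0.05, in all 11 alternatives. TRINITY_DN207774_c2_g2 lost its call in 6 of 23 alternatives and TRINITY_DN195253_c2_g6 in 1, against 12 h alone (edgeR adjusted p = 0.0654), while TRINITY_DN200183_c0_g1 and TRINITY_DN211432_c3_g1 kept theirs in all 23. Calls need large changes at this spread between libraries, and for genes under 1 CPM the depth limits what can be told from 0.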

Other observations

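Relative gene length, taken from the ratio of estimated counts to the authors' scaled values and set to 1 at the median gene of a library, had a median of 0.870 in the 410 genes higher at 48 h and 0.852 in the 219 lower, against 0.976 over all genes tested. Genes that were alone in their component made up 10.7% of the genes that rose, 6.85% of those that fell and 6.89% of all genes tested, and 22 of the 140 genes on at 48 h alone. These shares are descriptions without a test.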
